A study of Mus musculus with 4 samples.

Results

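The vascular endothelial growth factor (VEGF) genes examined here were 3 ligands (Vegfa, Vegfb and Pgf), 2 receptor tyrosine kinases (Flt1, encoding VEGFR1, and Kdr, encoding VEGFR2) and 2 neuropilin co-receptors (Nrp1 and Nrp2). These 7 genes were taken by name from the 55421 genes listed for each library, and all 7 were among the 14492 genes with at least 1 CPM (counts scaled to a common library size) in 2 or more libraries. The libraries came from whole uteri of pregnant mice at E18.5, 2 from WT C57BL/6J mice and 2 from Qa-2- mice of the H2 congenic strain B6.K1, which lack the genes for the MHC class Ib molecule Qa-2. Both strains were mated within themselves, so the fetuses of Qa-2- mothers also lacked Qa-2. The study asked how Qa-2 affects pregnancy outcome. It examined uteri by histology because growth restriction and late loss often point to a disturbed fetal blood supply. B6.K1 is a congenic line and not a single-gene deletion, so the donor H2 segment and any substrain difference cannot be told apart from the loss of Qa-2. The mice were mated as young adults.

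The libraries held between 33286390 and 41041299 read pairs counted on genes, with both WT libraries deeper, and a count of 3 stood for 0.0731 to 0.0901 CPM of the library totals before TMM scaling. The Qa-2 genes matched the labels, with 1251 to 6318 counts of H2-Q7 in WT and 2 to 4 in Qa-2- libraries. Levels of markers of other cell types differed between libraries. Endothelial markers were present in every library, smooth muscle markers summed to 12840 to 45000 CPM, uterine natural killer cell markers to 257 CPM in WT replicate 1 and 5.69 to 17.2 CPM elsewhere, and yolk sac markers to 484 CPM in Qa-2- replicate 1 and 9.07 to 47.9 CPM elsewhere. Of 15 trophoblast markers, 5 (Prl3d1, Gcm1, Synb, Hand1 and Ctsq) were at 0 in every library, and the 15 summed to 23.1 CPM in WT replicate 2 and 1.14 to 4.06 CPM elsewhere.

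VEGF-A is the principal growth factor of blood vessels and acts mainly through VEGFR2, the receptor that drives proliferation, migration and permeability of endothelial cells. VEGFR1 binds VEGF-A tightly but signals weakly, and its secreted form traps the ligand. Placental growth factor (PlGF, from Pgf) and VEGF-B bind VEGFR1 and not VEGFR2. Neuropilins hold VEGF and class 3 semaphorins at the cell surface, NRP1 largely on arteries and NRP2 largely on veins and lymphatic vessels. In pregnancy these factors take part in the growth and remodelling of the vessels that supply the placenta.

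The ligands and receptors did not all differ in the same direction. Transcripts of both receptors, of the ligands Pgf and Vegfb and of the co-receptor Nrp2 were more abundant in each WT library than in either Qa-2- library, whereas Vegfa was more abundant in both Qa-2- libraries and Nrp1 overlapped. None of the 7 genes passed an adjusted p of 0.05 in edgeR's quasi-likelihood test, and neither did any of the genes tested (0% called, smallest adjusted p 0.170 with Benjamini-Hochberg adjustment). At an unadjusted p under 0.05, 4 of the 7 were higher in WT (Vegfb, Pgf, Kdr and Nrp2), against 8.09% of all genes tested, and 1 was higher in Qa-2- (Vegfa), against 7.09%. Without overlap between the groups, 5 of the 7 were higher in WT, against 25.4% of all genes, and 1 was higher in Qa-2-, against 24.5%. DESeq2, used as an alternative, called Pgf and Kdr higher in WT and Vegfa higher in Qa-2- at an adjusted p under 0.05, and over all genes its calls made up 2.79% for higher in WT and 2.04% for higher in Qa-2-. With 2 libraries a group an exact permutation test of a single value cannot go below 0.33, and all p-values measure only the spread between these libraries. Kdr and Pgf belong to the genes that the study itself selected from these libraries as higher in WT, so their direction is not independent evidence.

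**Figure D1:**
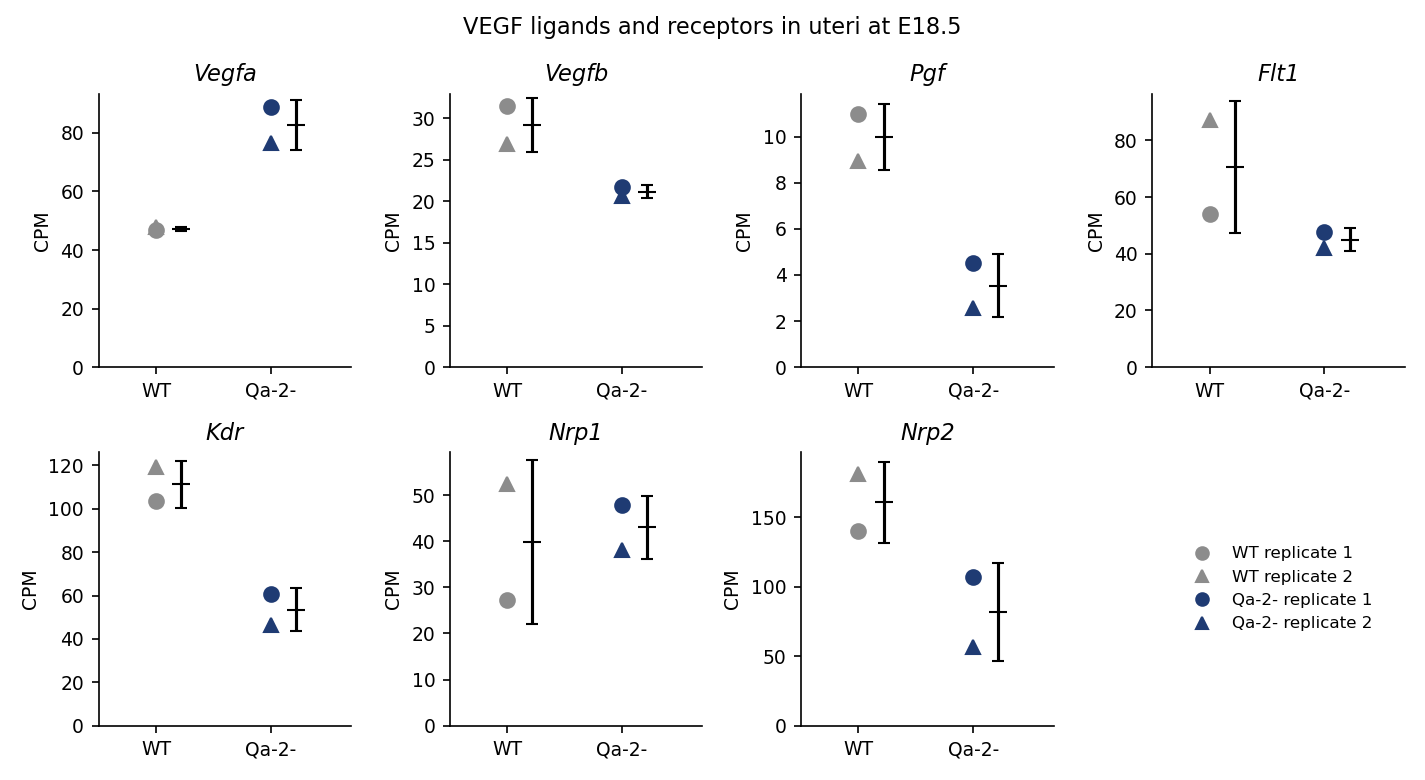
CPM on TMM-scaled library sizes (y axis) of the 7 VEGF genes in each WT and Qa-2- library (x axis; circles are replicate 1, triangles replicate 2), with the mean and SD of each group (n = 2) as a black bar. Vegfa sits at 46.7 and 47.8 CPM in WT below 76.7 and 88.7 CPM in Qa-2-, Kdr shows the opposite order, and the Nrp1 groups overlap.

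Vegfa (ENSMUSG00000023951) lies on the minus strand of chr17:46016993-46032369 in GRCm38, the chromosome that also carries the H2 complex, 10.6 Mb from H2-Q7. Whether the congenic segment of B6.K1 reaches it was not tested. Its level was 46.7 and 47.8 CPM in WT replicates 1 and 2, and 88.7 and 76.7 CPM in Qa-2- replicates 1 and 2. The Qa-2- libraries stood clearly above the WT libraries, which differed from each other by a factor of only 1.02. The mean was 47.2 ± 0.751 CPM in WT, compared with 82.7 ± 8.50 CPM in Qa-2- (SD, n = 2), a factor of 1.75 in favour of Qa-2-. The log2 fold change (WT relative to Qa-2-) was -0.81 with a standard error of 0.15 (adjusted p = 0.246 in edgeR's quasi-likelihood test; adjusted p = 0.0120 in DESeq2). Of all genes tested, 12.8% had a larger change in either direction. Epithelial cells are a known source of VEGF-A, and the 8 epithelial markers also had negative log2 fold changes, 7 of 8 without overlap (24.5% of all genes). Of the 8 markers, 2 had an unadjusted p under 0.05 in edgeR's quasi-likelihood test (7.09% of all genes). DESeq2 called 1 of these 8 markers (2.04% of all genes). The median of their log2 fold changes was -0.81, and it was -0.43 without WT replicate 2 and -1.24 without WT replicate 1. They added up to 2882 and 1762 CPM in WT and to 3951 and 3752 CPM in Qa-2-, so the WT libraries differed in these markers while they hardly differed in Vegfa. The part of epithelial content in the Vegfa difference was not tested.

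Pgf (ENSMUSG00000004791, chr12:85166635-85177790, minus strand) had the lowest counts of the 7 genes and the largest fold change among them. It was counted 441 and 338 times in the WT libraries and 160 and 90 times in the Qa-2- libraries, or 11.0, 8.96, 4.51 and 2.57 CPM. Both WT libraries lay above both Qa-2- libraries, and the Qa-2- libraries differed from each other by a factor of 1.75. The mean of 9.97 ± 1.43 CPM in WT was 2.82 times that of 3.54 ± 1.37 CPM in Qa-2- (SD, n = 2). The log2 fold change was 1.49 with a standard error of 0.36 (adjusted p = 0.255 in edgeR's quasi-likelihood test; adjusted p = 0.0110 in DESeq2), and 3.08% of all genes tested had a larger change. Placental trophoblast expresses Pgf. Pgf was highest in WT replicate 1, where the trophoblast markers summed to 1.42 CPM, and lower in WT replicate 2, where they summed to 23.1 CPM. The part of trophoblast in the Pgf difference was not tested.

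Vegfb (ENSMUSG00000024962, chr19:6982473-6987651, minus strand), whose product is linked to fatty acid uptake and vessel survival more than to vessel growth, showed a smaller difference. Its level was 31.5 and 26.9 CPM in WT, compared with 21.7 and 20.6 CPM in Qa-2-. The groups did not overlap, and the spread was larger within WT. The log2 fold change was 0.46 with a standard error of 0.17 (adjusted p = 0.311 in edgeR's quasi-likelihood test; adjusted p = 0.346 in DESeq2), and 29.9% of all genes tested had a larger change. The direction of Vegfb and Pgf was thus opposite to that of Vegfa.

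Kdr (ENSMUSG00000062960, chr5:75932827-75978458, minus strand) was counted 4162 and 4491 times in WT and 2147 and 1626 times in Qa-2-, or 104, 119, 60.5 and 46.5 CPM. The lower WT library was well above the higher Qa-2- library. The mean was 111 ± 10.9 CPM in WT, compared with 53.5 ± 9.90 CPM in Qa-2- (SD, n = 2), a factor of 2.08. The log2 fold change was 1.06 with a standard error of 0.20 (adjusted p = 0.246 in edgeR's quasi-likelihood test; adjusted p = 0.00307 in DESeq2), and 7.38% of all genes tested had a larger change. Kdr had the lowest DESeq2 adjusted p of the 7 genes.

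Flt1 (ENSMUSG00000029648, chr5:147561604-147726011, minus strand) lies on the same chromosome as Kdr. Its level was 54.0 and 87.1 CPM in WT, compared with 47.8 and 42.1 CPM in Qa-2-. Both WT libraries were above both Qa-2- libraries, but WT replicate 1 was closer to the Qa-2- libraries than to WT replicate 2. The mean was 70.6 ± 23.4 CPM in WT, compared with 45.0 ± 4.07 CPM in Qa-2- (SD, n = 2), and the log2 fold change was 0.65 with a standard error of 0.26 (adjusted p = 0.337 in edgeR's quasi-likelihood test; adjusted p = 0.278 in DESeq2). Without WT replicate 2 the log2 fold change was 0.26, and without WT replicate 1 it was 0.93, so the size of the difference rested on WT replicate 2. The annotation holds 2 protein-coding transcripts of Flt1, a long form with 30 exons and 1333 codons and a short form with 13 exons and 688 codons, and counts per gene add the full receptor and shortened forms together.

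Nrp2 (ENSMUSG00000025969, chr1:62703285-62818695, plus strand) had the highest counts of the 7 genes in WT. Its level was 140.4 and 181 CPM in WT, compared with 107 and 56.9 CPM in Qa-2-. The groups did not overlap, although the Qa-2- libraries differed from each other by a factor of 1.88. The log2 fold change was 0.97 with a standard error of 0.34 (adjusted p = 0.308 in edgeR's quasi-likelihood test; adjusted p = 0.109 in DESeq2). It was 0.58 without Qa-2- replicate 2 and 1.50 without Qa-2- replicate 1, so it depended on which Qa-2- library was used. Smooth muscle markers stood in the same order of libraries as Nrp2, adding up to 27030 and 45000 CPM in WT and to 23960 and 12840 in Qa-2-. Kdr and Flt1 stood in this order of libraries too. The part of smooth muscle in the differences of Nrp2, Kdr and Flt1 was not tested. The gene Gm37121 on the same strand overlaps Nrp2, and read pairs that overlapped both were not counted.

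Nrp1 (ENSMUSG00000025810, chr8:128358604-128503363, plus strand) was the only gene of the 7 whose groups overlapped. Its level was 27.3 and 52.4 CPM in WT, compared with 47.9 and 38.2 CPM in Qa-2-, with both the lowest and the highest value in WT. The mean was 39.9 ± 17.7 CPM in WT, compared with 43.1 ± 6.86 CPM in Qa-2- (SD, n = 2). The log2 fold change was -0.11 with a standard error of 0.34 (adjusted p = 0.894 in edgeR's quasi-likelihood test), and it was -0.66 without WT replicate 2 and 0.26 without WT replicate 1. A difference in Nrp1 was therefore not detectable with these libraries.

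The promoters of Vegfa and of the 3 genes Pgf, Flt1 and Kdr are shown because they stand on opposite sides of the comparison. The 250 bases before the first start listed by RefSeq for each gene (GRCm38.p6, minus strand, 5′ to 3′) are at chr17:46032378-46032627 for Vegfa, chr12:85177314-85177563 for Pgf, chr5:147726012-147726261 for Flt1 and chr5:75978456-75978705 for Kdr. Capitals mark matches on either strand to 5 motifs, and overlapping or adjacent matches run together. The core bound by hypoxia-inducible factors was searched as ACGTG and as the variant form GCGTG. The others were the box of SP1 and its relatives, GGGCGG, the core of ETS factors, among them endothelial regulators, GGAAGT, and the TATA box in its strict form, TATAAA.
Vegfa: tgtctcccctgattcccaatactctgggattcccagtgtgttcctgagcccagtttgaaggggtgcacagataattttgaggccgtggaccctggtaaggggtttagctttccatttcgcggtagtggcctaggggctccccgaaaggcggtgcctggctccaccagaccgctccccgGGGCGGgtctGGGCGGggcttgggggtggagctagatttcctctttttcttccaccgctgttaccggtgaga
Pgf: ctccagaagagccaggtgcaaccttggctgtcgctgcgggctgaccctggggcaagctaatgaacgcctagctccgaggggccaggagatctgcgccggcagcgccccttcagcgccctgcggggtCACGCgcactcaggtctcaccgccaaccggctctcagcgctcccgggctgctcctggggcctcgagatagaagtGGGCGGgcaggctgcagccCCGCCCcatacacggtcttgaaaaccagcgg
Flt1: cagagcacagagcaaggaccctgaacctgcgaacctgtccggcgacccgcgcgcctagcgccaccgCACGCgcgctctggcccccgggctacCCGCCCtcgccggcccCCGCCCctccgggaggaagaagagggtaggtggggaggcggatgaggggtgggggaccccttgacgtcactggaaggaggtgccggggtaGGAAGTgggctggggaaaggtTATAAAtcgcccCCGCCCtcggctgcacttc
Kdr: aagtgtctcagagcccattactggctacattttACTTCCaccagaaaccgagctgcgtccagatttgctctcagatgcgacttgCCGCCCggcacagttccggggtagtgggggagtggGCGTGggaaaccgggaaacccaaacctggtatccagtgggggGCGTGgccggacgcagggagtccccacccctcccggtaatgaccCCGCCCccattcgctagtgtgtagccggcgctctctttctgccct
The Vegfa window held 2 copies of the SP1 box, 72 and 62 bases before the start, and neither form of the hypoxia core. The hypoxia element known for Vegfa lies farther upstream, outside this window. GCGTG was found 124 bases before the start of Pgf, 184 bases before that of Flt1 and 131 and 89 bases before that of Kdr, and also in the windows of Vegfb, Nrp1 and Nrp2. Of 27025 promoters of the same length, 38.64% held either core, 32.96% the SP1 box, 19.95% the ETS core and 12.98% the strict TATA box. The ETS core was present in Flt1 and Kdr and in none of the other 5 windows, and the strict TATA box in Flt1 alone of the 7. These are matches of letters and not measurements of binding.

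To compare levels between genes, CPM were divided by the summed exon length in kilobases (FPKM). In WT, Vegfb had the highest FPKM of the 7 genes at 19.6 and 16.8, followed by Nrp2 at 11.9 and 15.3, Kdr at 11.5 and 13.2 and Vegfa at 10.9 and 11.2 FPKM. Nrp2, Kdr and Vegfa are neighbours whose levels lay within or near the spread between the WT libraries. Flt1, Nrp1 and Pgf were lower, at 2.79 to 6.45 FPKM, and Nrp1 and Pgf changed places between the WT libraries. In Qa-2-, Vegfa was at the top with 20.7 and 17.9 FPKM, followed by Vegfb with 13.5 and 12.9 FPKM, and Pgf was at the bottom with 1.55 and 0.886 FPKM. Kdr, at 6.70 and 5.15 FPKM, and Nrp2, at 9.04 and 4.80 FPKM, changed places between the Qa-2- libraries. Vegfa thus ranked 4 of 7 in both WT libraries and 1 of 7 in both Qa-2- libraries. Summed exon lengths include alternative ends, so the length of the longest protein-coding transcript was also used, a choice made after seeing the data. Vegfa then ranked 4 and 5 in WT and 1 in both Qa-2- libraries, and Pgf was last in all 4 libraries. The top place in WT depended on the length used, since with the transcript length Nrp2 stood above Vegfb in WT replicate 2 and below it in WT replicate 1.

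**Figure D2:**
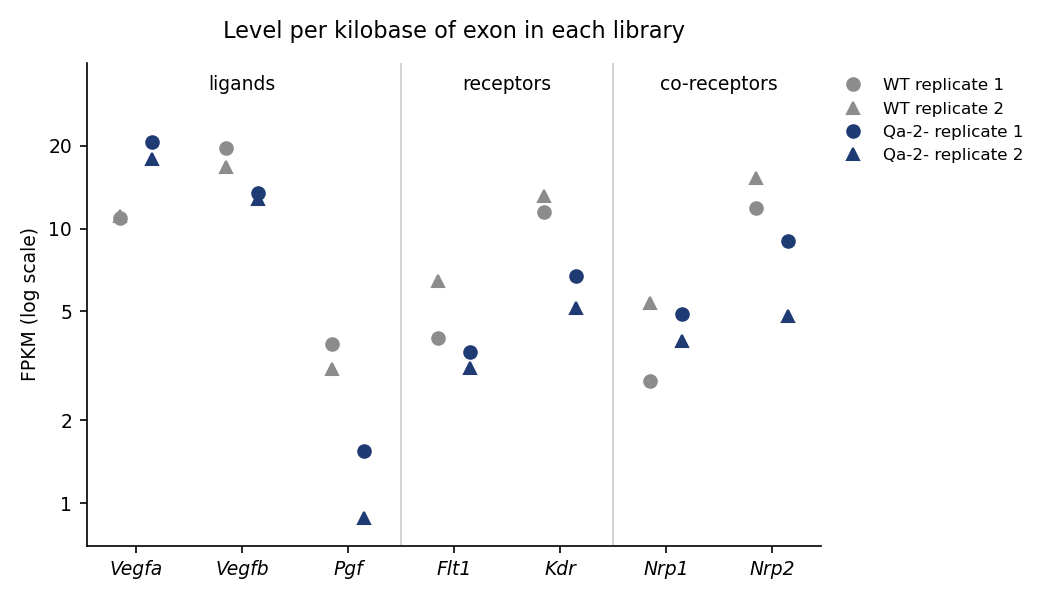
FPKM (y axis, log scale) of each VEGF gene in each library, ordered by role (x axis), with grey symbols for WT and blue symbols for Qa-2-. Vegfa is the highest gene in both Qa-2- libraries (20.7 and 17.9 FPKM), whereas Vegfb is the highest in both WT libraries (19.6 and 16.8 FPKM) with this length, but not in WT replicate 2 with the length of the longest protein-coding transcript.

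Per length, the 3 ligands summed to nearly the same level in all libraries, 34.3 and 31.0 FPKM in WT and 35.8 and 31.7 FPKM in Qa-2-, but their make-up differed. Without division by length the ligands summed to 89.2 and 83.6 CPM in WT and were higher in Qa-2-, at 115 and 99.9 CPM, without overlap, a comparison added after seeing the data. Vegfa made up 31.8% and 36.0% of the summed ligand FPKM in WT and 57.9% and 56.6% in Qa-2-. Vegfb made up 57.2% and 54.1% in WT and 37.8% and 40.6% in Qa-2-, and Pgf 11.0% and 9.96% in WT and 4.34% and 2.80% in Qa-2-. In contrast to the ligands, the receptors Flt1 and Kdr summed to 15.5 and 19.6 FPKM in WT and to 10.2 and 8.26 FPKM in Qa-2-, without overlap. The co-receptors summed to 14.7 and 20.7 FPKM in WT and to 13.9 and 8.71 FPKM in Qa-2-. The summed ligands exceeded the summed receptors 2.22 and 1.58 times in WT and 3.49 and 3.83 times in Qa-2-. As a geometric mean of the 4 libraries, receptors over ligands was 0.382 with summed exon length and 0.507 with the longest protein-coding transcript, and the order turned without division by length (1.38).

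Ratios within a library do not depend on its scaling. Of the ratios between single genes computed here, Vegfa over Pgf differed most, and this ratio was 2.88 and 3.61 in WT and 13.3 and 20.2 in Qa-2-, a 5.09-fold difference between the groups. The ratio of Vegfa to its signalling receptor Kdr was 0.949 and 0.846 in WT and 3.09 and 3.48 in Qa-2-, a 3.66-fold difference, so that transcripts of the ligand were slightly below those of the receptor in WT and well above them in Qa-2-. Vegfa over Flt1 was 2.72 and 1.73 in WT and 5.84 and 5.74 in Qa-2-. The ratio of the VEGFR1 ligand Pgf to Flt1 went the other way, at 0.946 and 0.479 in WT and 0.438 and 0.284 in Qa-2-, and the groups lay close together. Vegfb over Flt1 overlapped, at 4.90 and 2.60 in WT and 3.82 and 4.13 in Qa-2-. Kdr over Flt1 was 2.87 and 2.05 in WT and 1.89 and 1.65 in Qa-2-, again with the groups close together. Among the co-receptors, Nrp2 over Nrp1 was 4.25 and 2.86 in WT and 1.85 and 1.23 in Qa-2-, and Nrp2 over Kdr overlapped between the groups. None of these ratios was tested, and no p is given.

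**Figure D3:**
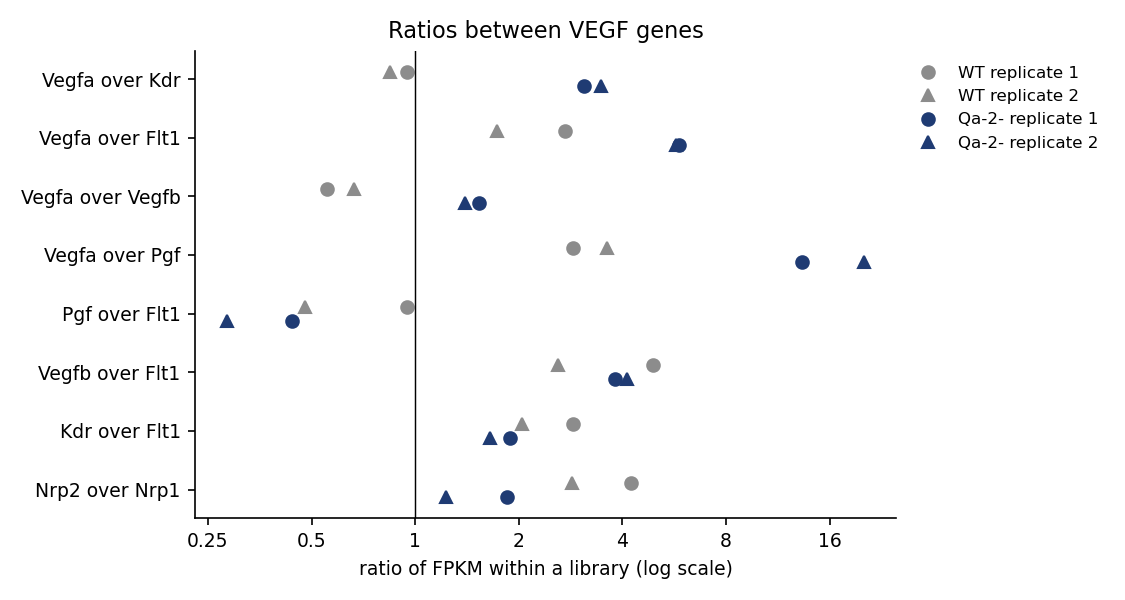
Ratio of the FPKM of pairs of VEGF genes within each library (x axis, log scale; y axis, gene pair), with grey symbols for WT and blue symbols for Qa-2-. Vegfa over Kdr is 0.846 and 0.949 in WT and 3.09 and 3.48 in Qa-2-, whereas Vegfb over Flt1 overlaps between the groups.

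Since Kdr and Flt1 are made mainly by endothelial cells, the 7 genes were set beside 14 endothelial markers. All 14 markers were higher in WT without overlap (25.4% of all genes were), 12 had an unadjusted p under 0.05 (8.09% of all genes), and the median log2 fold change was 0.85, against 0.01 for all genes tested. The markers summed to 1946 and 1904 CPM in WT and to 1032 and 949 CPM in Qa-2-. Among them, the junction genes Cldn5 and Cdh5 differed most, with log2 fold changes of 1.66 and 1.63 (both adjusted p = 0.246 in edgeR's quasi-likelihood test; adjusted p = 4.87e-06 and 0.000425 in DESeq2). Both varied between the WT libraries, with Cdh5 at 444 CPM in replicate 1 and 239 CPM in replicate 2, and Cldn5 at 132 and 88.8 CPM. DESeq2 called 9 of the 14 markers higher in WT, against 2.79% of all genes. Several of these markers, such as Pecam1, Cdh5, Tie1 and Tek, are also among the genes the study selected from these libraries as higher in WT. Markers of red cells, which fill the vessels, summed to 364 and 722 CPM in WT and to 116 and 75.6 in Qa-2-, and their part in these differences was not tested. In whole tissue, fewer endothelial cells and less RNA per endothelial cell cannot be told apart.

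**Figure D4:**
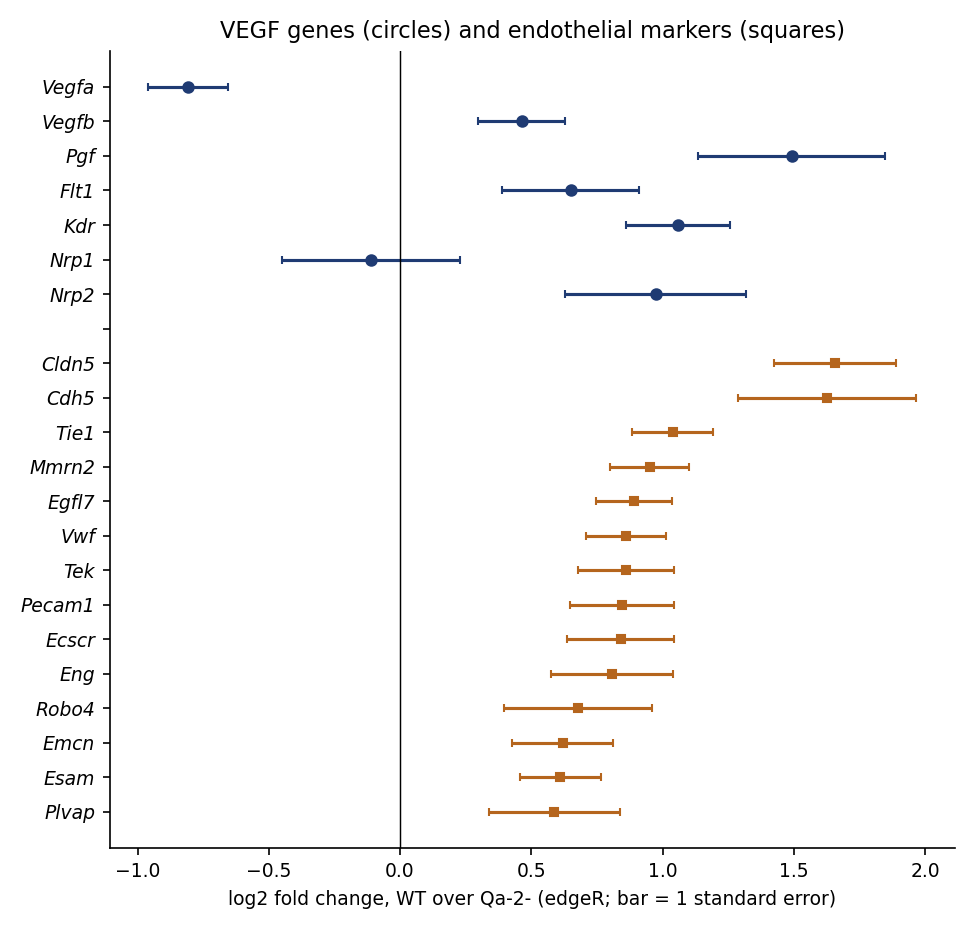
Log2 fold change, WT relative to Qa-2- (x axis; bars are 1 standard error from edgeR) of the 7 VEGF genes (circles) and 14 endothelial markers (squares), 1 gene per line. All 14 markers lie to the right of 0, as do Kdr (1.06) and Nrp2 (0.97), whereas Vegfa (-0.81) lies on the other side.

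Relative to the mean log2 CPM of these markers in the same library, which was 0.91 higher in WT, the groups overlapped for Kdr, Flt1 and Nrp2. Kdr stood at -0.05 and 0.11 on the log2 scale in WT and at 0.01 and -0.25 in Qa-2-, a mean difference of 0.15. Flt1 differed by -0.30, with -0.63 without WT replicate 2 and 0.03 without WT replicate 1, and Nrp2 by 0.12, with -0.28 without Qa-2- replicate 2 and 0.52 without Qa-2- replicate 1. Pgf was higher in WT relative to the markers, by 0.63 on the log2 scale, with values of -3.29 and -3.62 in WT and -3.74 and -4.43 in Qa-2-. This difference was 0.28 without Qa-2- replicate 2 and 0.98 without Qa-2- replicate 1. Vegfa was lower in WT relative to the markers, with a difference of -1.72, as were Nrp1 (-1.09) and Vegfb (-0.45), each without overlap. The difference of Nrp1 was -0.64 without WT replicate 1. Because the markers were themselves 0.91 higher in WT, a gene alike in both groups also lies lower in WT on this scale. By its own CPM Vegfb was higher in WT, and the Nrp1 groups overlapped. The share of all genes without overlap on this scale was not computed. Against Cdh5 and Pecam1 alone, the mean difference of Kdr was -0.13 and that of Nrp2 -0.17, so the sign of these small differences also depended on the markers chosen, while Pgf was still 0.34 higher in WT, Vegfa was lower (-2.01), Vegfb differed by -0.74 and Flt1 by -0.59.

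**Figure D5:**
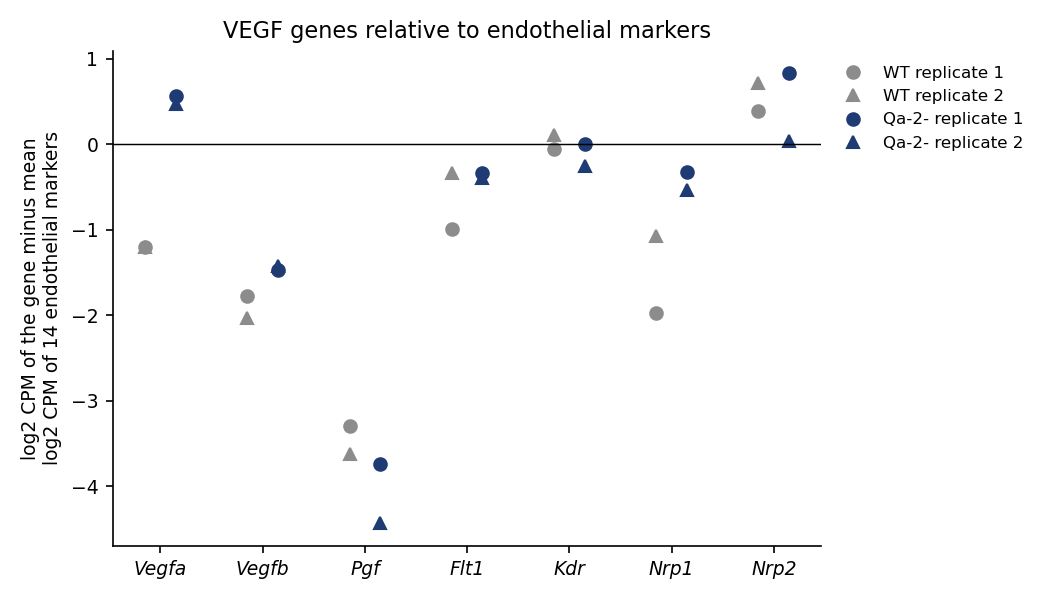
Log2 CPM of each VEGF gene minus the mean log2 CPM of the 14 endothelial markers in the same library (y axis) for the 7 genes (x axis), with grey symbols for WT and blue symbols for Qa-2-. Kdr, Flt1 and Nrp2 overlap between the groups, whereas Vegfa lies at -1.20 in both WT libraries and at 0.56 and 0.47 in the Qa-2- libraries.

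The lymphatic arm of the family comprised 3 genes. Flt4, encoding the lymphatic receptor VEGFR3, was at 205 and 154 CPM in WT and at 71.4 and 37.1 CPM in Qa-2-, a log2 fold change of 1.72 (adjusted p = 0.246 in edgeR's quasi-likelihood test and 0.00058 in DESeq2). Its ligand gene Vegfd was at 225 and 209 CPM in WT and at 119 and 57.0 CPM in Qa-2-, a log2 fold change of 1.30. Vegfc had a log2 fold change of 0.57 (adjusted p = 0.483 in edgeR's quasi-likelihood test), and in all 3 the groups did not overlap (25.4% of all genes). The median of the 3 log2 fold changes was 1.30, and it was 1.925 without Qa-2- replicate 1 and 0.857 without Qa-2- replicate 2. The 4 lymphatic endothelial markers tested (Prox1, Lyve1, Pdpn and Mmrn1) had log2 fold changes with a median of 1.80 and were all higher in WT without overlap, against 25.4% of all genes, and DESeq2 called 4 of 4 higher in WT, against 2.79% of all genes. Flt4, Prox1 and Pdpn are among the genes the study selected from these libraries.

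Genes downstream of VEGF receptors were described in 2 lists. Of 8 genes known to be induced by VEGF in endothelium, 7 were tested, all 7 were higher in both WT libraries (25.4% of all genes) and 5 had an unadjusted p under 0.05 (8.09% higher in WT among all genes), with a median log2 fold change of 0.75. They included Angpt2, a vessel-destabilizing ligand, with a log2 fold change of 1.51, Dll4, a Notch ligand of tip cells, with 1.17, and Nos3, the endothelial nitric oxide synthase, with 0.90. Dll4 was at 34.5 and 29.4 CPM in WT and at 14.9 and 13.4 CPM in Qa-2-. These genes are themselves largely endothelial, and Angpt2, Dll4 and Nos3, like Ptprb and Lmo2, are among the genes the study selected from these libraries. The 21 members of VEGF receptor signalling, kinases, adaptors and phosphatases, had a median log2 fold change of 0.22, which was 0.08 without Qa-2- replicate 2, and 9 of them were higher in WT without overlap, against 25.4% of all genes. Of these 21 genes 1 had an unadjusted p under 0.05 in each direction, below the shares of all genes (8.09% and 7.09%), namely the receptor-type phosphatases Ptprb (0.82) and Ptprj (-0.50). Among 12 endothelial transcription factors tested, 7 were higher in WT at an unadjusted p under 0.05 (8.09% of all genes), such as Lmo2, with a log2 fold change of 1.37, and 2, Sox7 and Klf4, were higher in Qa-2- without overlap (24.5% of all genes), neither with an unadjusted p under 0.05.

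Partners of the neuropilins include plexins, which carry the semaphorin signal, and the class 3 semaphorins. Of 13 genes, 7 were higher in WT at an unadjusted p under 0.05 (8.09% of all genes) and none was higher in Qa-2- (7.09%), and the median of the 13 log2 fold changes was 0.53. The 7 were the plexin genes Plxna2 (0.70), Plxna4 (0.78) and Plxnd1 (0.53) and the semaphorin genes Sema3b (0.70), Sema3d, Sema3e and Sema3g. Sema3d had a log2 fold change of 1.97, Sema3e, a ligand of plexin D1, of 1.60 and Sema3g of 0.94. Of the 13 genes, 5 had a negative log2 fold change, none of them with an unadjusted p under 0.05, among them Plxna3 (-0.55), Gipc1 (-0.25) and Sema3c (-0.23).

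Vegfa is a classic target of hypoxia-inducible factors, so other targets and the oxygen-sensing genes were set beside it. Of 14 hypoxia-induced genes, 6 were higher in WT at an unadjusted p under 0.05 (8.09% of all genes) and 1 in Qa-2-, close to the share of all genes (7.09%). The median log2 fold change was 0.44, and that of Vegfa was -0.81. Those higher in WT included the vasodilator peptide gene Adm (1.58), Ankrd37 (1.64) and the mitophagy gene Bnip3 (1.19), whereas Car9, a carbonic anhydrase at 0.498 to 1.40 CPM, had a log2 fold change of -1.17. Adm is also among the genes the study selected from these libraries. Adm and Bnip3 were highest in WT replicate 1, at 50.3 and 94.7 CPM, and Vegfa was alike in the WT libraries. Without overlap, 9 of the 14 genes were higher in WT (25.4% of all genes). In Qa-2- 2 were higher without overlap, Car9 and Kdm3a (24.5% of all genes). The part of hypoxia in the Vegfa difference was not tested. The 10 oxygen-sensing genes had log2 fold changes with a median of 0.02, and the only gene among them with an unadjusted p under 0.05 was Epas1 (0.55), a subunit abundant in endothelium, so 1 of 10 was higher in WT, close to the 8.09% of all genes.

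The profiles most like those of the 7 genes were sought among the genes with a mean of at least 10 CPM, by the root mean square distance of centred log2 CPM over the 4 libraries. Nearest to Vegfa were the circadian clock gene Per1 (distance 0.0297), Mtr and Osbpl3, and 12 genes lay within 0.1. Nearest to Kdr were Slc48a1 (0.0210), Kifc3 and Cd59a, and nearest to Flt1 were Ms4a6c (0.0251), Rflnb and the endothelial receptor gene Robo4. Nearest to Pgf was Fez1 (0.0583), with only 5 genes within 0.1, whereas 287 genes lay that close to Vegfb, led by Plekha3 (0.0116). Nearest to Nrp1 was Svil (0.0524) and nearest to Nrp2 was Hspb1 (0.0422). Likeness over 4 libraries describes these values only.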

How the data were processed

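Whole uteri at E18.5 were sequenced by poly(A)-selected, strand-specific, paired-end RNA-seq, with 2 WT and 2 Qa-2- libraries grouped by the labelled genotype. The authors deposited raw counts of read pairs per gene, made with featureCounts 2.0.0 on GRCm38 on the reverse strand, where the 2 ends of a pair had mapped and the mapping quality reached 3, after alignment with STAR 2.7.3a per the submitters' processing notes. The other deposited column used is the summed exon length in bases. Pairs that overlapped several genes or mapped to several places were not counted, which can lower genes with overlapping neighbours.

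Gene symbols came from GENCODE M21 (55240 of 55421 identifiers matched). CPM were computed on TMM-scaled library sizes, and FPKM are these CPM per kilobase of summed exon length. Genes that reached 1 CPM in 2 or more samples were tested with edgeR 4.0.16 (glmQLFit, glmQLFTest) in R 4.3.3, with Benjamini-Hochberg adjustment over all 14492 genes. This filter is written as the study describes it, but the study reports more genes kept, so it may have been applied differently there. A threshold of 0.05 was used. The alternatives were DESeq2 1.42.0, other normalizations, filters and fits, a replicate block and leaving out each library. Limits of 3 counts cover counting error only. Replicate libraries differed by more than sampling noise (chi-square per gene 241 in WT and 151 in Qa-2-). The labels do not state that libraries came from separate mice, whereas the study gives 2 mice per group. Promoters were taken from RefSeq (GRCm38.p6), with an entry for all 7 genes. The steps were tested on simulated data.

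The 7 genes and all gene lists were chosen with earlier results of these data known. Named genes are the 7 genes, in each list the 3 genes with the highest and the 3 with the lowest log2 fold change, of which not all are printed, and up to 3 of the nearest profiles of each gene. H2-Q7, Tek, Pecam1, Plxna2, Plxna4, Plxnd1, Sema3b and the trophoblast markers at 0 are named outside this rule, after their values were seen.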

Additional observations from a re-analysis of the deposited data

How the results depend on the processing

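The directions of all 7 genes held in all 9 alternatives that kept the 4 libraries. With DESeq2 3 genes were called, with log2 fold changes of -0.81 for Vegfa, 1.49 for Pgf and 1.05 for Kdr, where edgeR called none. Over these alternatives the adjusted p ranged from 0.0120 to 0.471 for Vegfa, from 0.0110 to 0.455 for Pgf and from 0.00307 to 0.455 for Kdr. Same-numbered libraries did not deviate together (correlation -0.40), so the numbers do not pair them. With 2 libraries a group the deviations mirror each other, so libraries of unlike number deviated together. With this crossed pairing as a block 3625 genes had an unadjusted p under 0.05 in edgeR's quasi-likelihood test, against 2199 without a block. What the shared deviation stands for was not tested. With the replicate block 0 of the 7 genes were called and the adjusted p of Kdr was 0.455, and with the crossed pairing it was 0.0752. Over all genes edgeR called 0 (2199 at an unadjusted p under 0.05), 61 without a filter on low counts, 2 with the replicate block and 45 without WT replicate 2, and DESeq2 called 700. Over the 9 alternatives that kept the 4 libraries, the members at an unadjusted p under 0.05 ranged from 3 to 5 higher in WT. The count higher in Qa-2- stayed at 1. For Vegfb the unadjusted p was 0.0987 with the replicate block and 0.0843 with library totals alone in edgeR's quasi-likelihood test. In DESeq2's Wald test it was 0.0645. Leaving out each library in turn assumes that a lone library varies like those of the other group. The log2 fold change then ranged from -0.91 to -0.70 for Vegfa, from 1.14 to 1.95 for Pgf and from 0.88 to 1.26 for Kdr. Nrp1 ranged from -0.66 to 0.26 and reversed to 0.06 without Qa-2- replicate 1 and to 0.26 without WT replicate 1. The median of the endothelial markers ranged from 0.80 to 0.97 and was 0.76 with library totals alone, which shifted the median of all genes by -0.10. Summed receptors over summed ligands, as a geometric mean of the 4 libraries, was 0.382 per length, 1.38 without division by length and 0.323 to 0.434 without 1 library. List medians kept their sign in 216 of 221 alternatives. Fold changes of Pgf rest on 90 to 441 counts a library, and 2 libraries a group limit every p-value.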

Other observations

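Markers of cells that accompany the vessels are given as values. All 6 pericyte markers had positive log2 fold changes of WT relative to Qa-2-, none had an unadjusted p under 0.05, and 3 did not overlap (25.4% of all genes). Their median was 0.55, and it was 0.10 without WT replicate 2, 0.26 without Qa-2- replicate 2 and 0.89 without WT replicate 1. All 8 smooth muscle markers were positive, none had an unadjusted p under 0.05, and 6 did not overlap (25.4% of all genes). Their median was 0.99, and it was 0.58 without WT replicate 2 and 0.61 without Qa-2- replicate 2. The 8 genes of uterine stroma and hormone receptors had a median of 0.45, and at an unadjusted p under 0.05 3 of them favoured WT (8.09% of all genes) and 1 favoured Qa-2- (7.09%). Of 6 macrophage markers, 2 were higher in WT at that threshold (8.09% of all genes). Their median of 0.52 was 0.02 without WT replicate 2, 0.22 without Qa-2- replicate 2 and 0.89 without Qa-2- replicate 1. None of these genes passed an adjusted p of 0.05 in edgeR's quasi-likelihood test, and neither did any other gene tested. At an adjusted p under 0.05, DESeq2 called 2 of the 8 smooth muscle markers higher in WT, against 2.79% of all genes. It also called 1 of the 8 stroma genes and 1 of the 6 macrophage markers higher in WT, and no pericyte marker.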
